A study of Mus musculus with 24 samples.

Results

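The non-endothelial cells of embryonic day (E) 12.5 mouse livers that lacked the chromatin remodeler BRG1 in endothelial cells (*Brg1-ECko*) were compared with those of littermate controls. They were taken as the 3 non-EC *Brg1-ECko* libraries and the 3 non-EC control libraries, 6 of the 24 RNA-Seq libraries of the series. Livers were digested, CD146+ liver sinusoidal endothelial cells (LSECs) were pulled out with magnetic beads, and the cells left behind were the non-EC cells, with 12 libraries of each kind and 3 embryos per genotype. *Brg1-ECko* embryos carried VE-cadherin-Cre and were *Brg1 fl/fl* and *Chd4 fl/+*, so that 1 allele of *Chd4*, the gene of another chromatin remodeler, was floxed too. Controls had no Cre and at least 1 floxed allele of both genes. The other mutants used here were *Chd4-ECko* (*Chd4 fl/fl* and *Brg1 fl/+* with the same Cre) and *Brg1/Chd4-ECdko*, in which both genes were fl/fl with this Cre. All groups were on a mixed genetic background, and embryos of both sexes were used. VE-cadherin-Cre is active in endothelial cells and, as the paper states for livers of a later embryonic stage, in some blood cells. The non-EC fraction may therefore have held cells in which Cre had acted, which was not measured here. The comparison asked which transcripts of the remaining liver cells differed when the endothelium lacked BRG1.

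At this stage the liver is the main blood-forming organ. Its parenchyma consists of hepatoblasts, the bipotent precursors of hepatocytes and cholangiocytes, which already secrete plasma proteins such as alpha-fetoprotein, albumin, apolipoproteins and coagulation factors. Erythroid cells, which mature on macrophages, make up much of the rest, together with progenitors, granulocytes, megakaryocytes, stellate cells and mesothelium. BRG1 is the ATPase of SWI/SNF (BAF) complexes, which slide and evict nucleosomes, and CHD4 is an ATPase of the NuRD complex. Hepatocyte genes are switched on by a network of transcription factors (HNF4A, FOXA proteins and C/EBPα) that bind their promoters and each other's.

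The values were TPM, the length-adjusted share of each gene in the reads scaled to a common total in each library. The depth of each library is not given, and a rise of one abundant cell type lowers the TPM of the others. In such bulk samples fewer cells of a type and less RNA per cell cannot be told apart. Between 11450 and 11886 genes reached 1 TPM in the 6 libraries. The fraction was poor in endothelial RNA, since the 20 endothelial markers summed to 72.3 to 105 TPM in the non-EC control libraries and to 2012 to 2675 TPM in the control LSEC libraries. *Stab2* and *Mcam*, which encodes CD146, were at 0.340 to 1 and 0.258 to 0.772 TPM in the non-EC control libraries. *Smarca4*, the gene of BRG1, was at 189, 183 and 185 TPM in the non-EC controls and at 189, 165 and 171 TPM in non-EC *Brg1-ECko* cells (adjusted p = 0.444). *Chd4* was at 350.0 to 378 and 353 to 406 TPM (adjusted p = 0.714). In the LSECs of the same genotypes *Smarca4* was at 161, 144 and 134 against 157, 111 and 127 TPM (adjusted p = 0.779), but TPM over the whole gene are not a check of a deletion of a few exons. Y-linked genes differed between the groups. *Eif2s3y* was at 42.4, 74.9 and 38 TPM in controls 1 to 3 and at 0.678, 0.418 and 23.7 TPM in *Brg1-ECko* libraries 1 to 3, so that 2 of the 3 *Brg1-ECko* libraries were near 0 and no control was. Mitochondrially encoded genes took 6.17% to 7.69% of the TPM of the controls and 3.04% to 5.51% in *Brg1-ECko* libraries, and globin genes 0.207% to 0.952% and 0.144% to 0.359%.

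The sequences upstream of 3 of the 4 genes that lead the comparison are shown because these genes rose together and differ in their roles. Each is the 150 bases before the annotated start of the canonical transcript (GRCm39, GENCODE vM39), 5′ to 3′ on the gene's strand, with matches to the searched motifs in capitals. *Itih4* lies at chr14:30608228-30608377 (plus strand), *Lcat* at chr8:106670047-106670196 and *Arpin* at chr7:79585108-79585257 (both minus strand). The window of *Apoa2* lies in annotated exons and is not printed.
Itih4: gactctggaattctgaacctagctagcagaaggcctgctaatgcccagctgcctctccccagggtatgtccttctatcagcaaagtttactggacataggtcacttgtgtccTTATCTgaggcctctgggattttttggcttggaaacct
Lcat: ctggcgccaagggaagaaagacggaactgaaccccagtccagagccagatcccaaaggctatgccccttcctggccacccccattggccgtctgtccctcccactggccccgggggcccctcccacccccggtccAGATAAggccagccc
Arpin: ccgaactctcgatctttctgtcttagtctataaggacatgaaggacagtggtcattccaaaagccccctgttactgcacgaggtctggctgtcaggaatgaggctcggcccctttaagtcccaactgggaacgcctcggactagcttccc
The capitals mark the GATA motif AGATAA, read on the minus strand in *Itih4* at 38 bases before the start and on the plus strand in *Lcat* at 15 bases. This motif is bound by GATA factors of blood and liver cells and was found in 3.66% of the 12221 promoters of tested genes, on either strand. The other motifs given here were CAAAGTCCA for HNF4 (0.205% of promoters), TTGCNNAA for C/EBP (4.27%), TGTTTAC for FOXA (1.2%), GGGANTTCC for NF-kappaB (1.06%) and TTTCNNTTT for interferon response factors (3.94%). None of these letters occurred in the 3 windows, and *Arpin* had no match to any of them or to AGATAA.

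Of 12223 genes tested, 1426 differed between non-EC *Brg1-ECko* and control cells at an adjusted p under 0.05 (limma). Among them 1089 were higher (8.91% of all tested) and 337 were lower (2.76%), so that 76.4% of the calls were higher. Under quantile normalization 64.5% of 1756 calls were higher, and in a fit of the 6 libraries alone 55.2% of 2069. The lower calls were 926 in that fit and 64 without *Brg1-ECko* replicate 1. The differentially expressed genes (DEGs), which also changed by more than 1 on the log2 scale, numbered 167, of which 145 were higher (1.19% of all tested) and 22 lower (0.18%). All 3 *Brg1-ECko* libraries lay above all 3 controls in 21.9% of the tested genes and below them in 18% of them. Across the tested genes the median change was 0.02 on the log2 scale. Without *Brg1-ECko* replicates 1, 2 and 3 in turn 568, 1233 and 684 genes were called, and without control replicates 1, 2 and 3 in turn 954, 689 and 989. With *Eif2s3y* as a covariate 426 genes were called, 396 of them higher, and 125 were called without the 2 *Brg1-ECko* libraries low in *Eif2s3y*. Of the 128 named genes that were called, 52 lost their call with the covariate and 87 without those 2 libraries, more than are pointed out gene by gene.

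**Figure D1:**
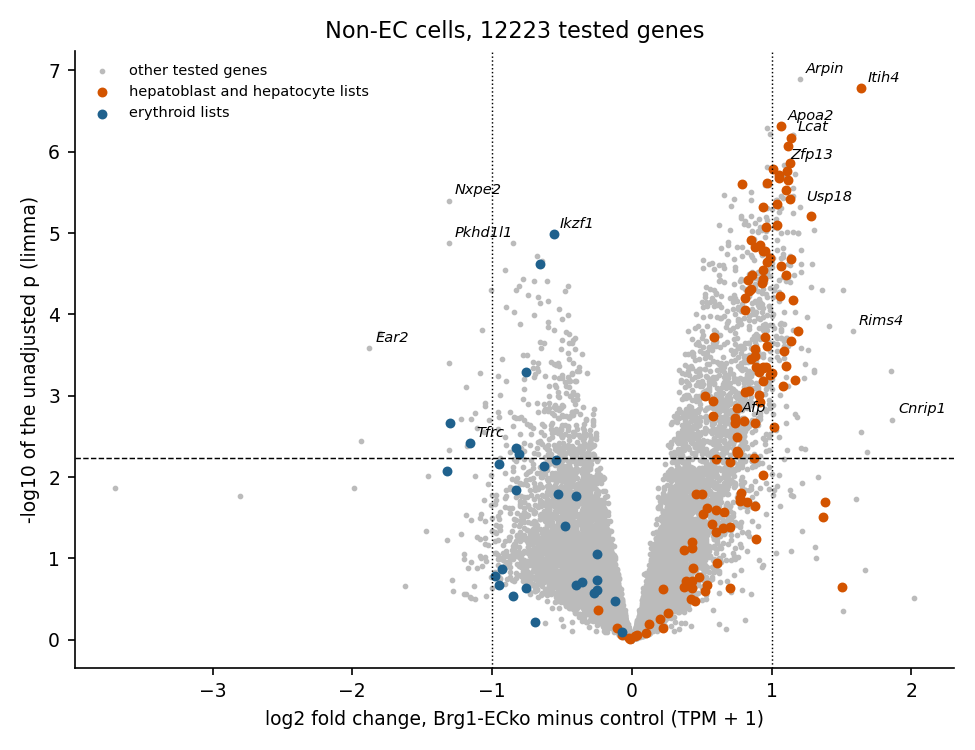
Each point is 1 of the 12223 tested genes, with its log2 fold change (*Brg1-ECko* minus control, x axis) and the −log10 of its unadjusted limma p (y axis). Orange points are the 128 tested genes of the hepatoblast and hepatocyte lists. Blue points are those of the lists of adult globins and late erythroid genes and of erythroid transcription factors. The dashed line is the largest p that passed adjustment at 0.05, and the dotted lines mark log2 changes of −1 and 1. Of the orange points 123 lie right of 0, and all blue points lie left of it. The embryonic globins, of which 2 of 3 tested had positive values, are not in blue.

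*Itih4*, *Arpin*, *Apoa2* and *Lcat* were among the 8 genes with the smallest p-values of the comparison. *Itih4* encodes an inter-alpha-trypsin inhibitor heavy chain, a plasma glycoprotein of hepatocytes. It was at 15.1, 14 and 18.2 TPM in the controls and at 53.4, 42 and 58.9 TPM in *Brg1-ECko* libraries. The lowest *Brg1-ECko* library was above the highest control, and the means were 15.7 ± 2.16 and 51.4 ± 8.64 TPM (SD, n = 3), a ratio of 3.27 and a log2 fold change of 1.64 ± 0.14 (SE, adjusted p = 0.001). *Apoa2*, a major protein of high-density lipoprotein, was at 1096, 1279 and 1314 TPM in the controls and at 2718, 2363 and 2654 TPM in *Brg1-ECko* libraries. The 3 mutant libraries were all above the 3 controls, with a ratio of means of 2.1 and a log2 fold change of 1.07 ± 0.1 (adjusted p = 0.00102). *Lcat*, the plasma enzyme that esterifies cholesterol on high-density lipoprotein, rose from 42, 33.1 and 39.4 to 89.7, 73.7 and 92.8 TPM. The groups did not overlap, *Brg1-ECko* replicate 2 was the lowest of its group, and the log2 fold change was 1.14 ± 0.11 (ratio of means 2.24, adjusted p = 0.00102).

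*Arpin* encodes an inhibitor of the Arp2/3 complex, which nucleates branched actin, and is not a liver-specific gene. Its values were 7.38, 8.09 and 8.10 TPM in the controls and 19.2, 21.1 and 17.8 TPM in *Brg1-ECko* libraries. Here *Brg1-ECko* replicate 2 was the highest library of its group, whereas it was the lowest for the other 3 genes. The ratio of means was 2.46 and the log2 fold change 1.2 ± 0.1 (adjusted p = 0.001). All 4 genes passed the test under each alternative that was run, including the *Eif2s3y* covariate and the fit without the 2 *Brg1-ECko* libraries low in *Eif2s3y*. *Itih4* lies at chr14:30608378-30624310, *Apoa2* at chr1:171049125-171053948, *Lcat* at chr8:106665839-106670046 and *Arpin* at chr7:79574892-79585113 (GRCm39).

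**Figure D2:**
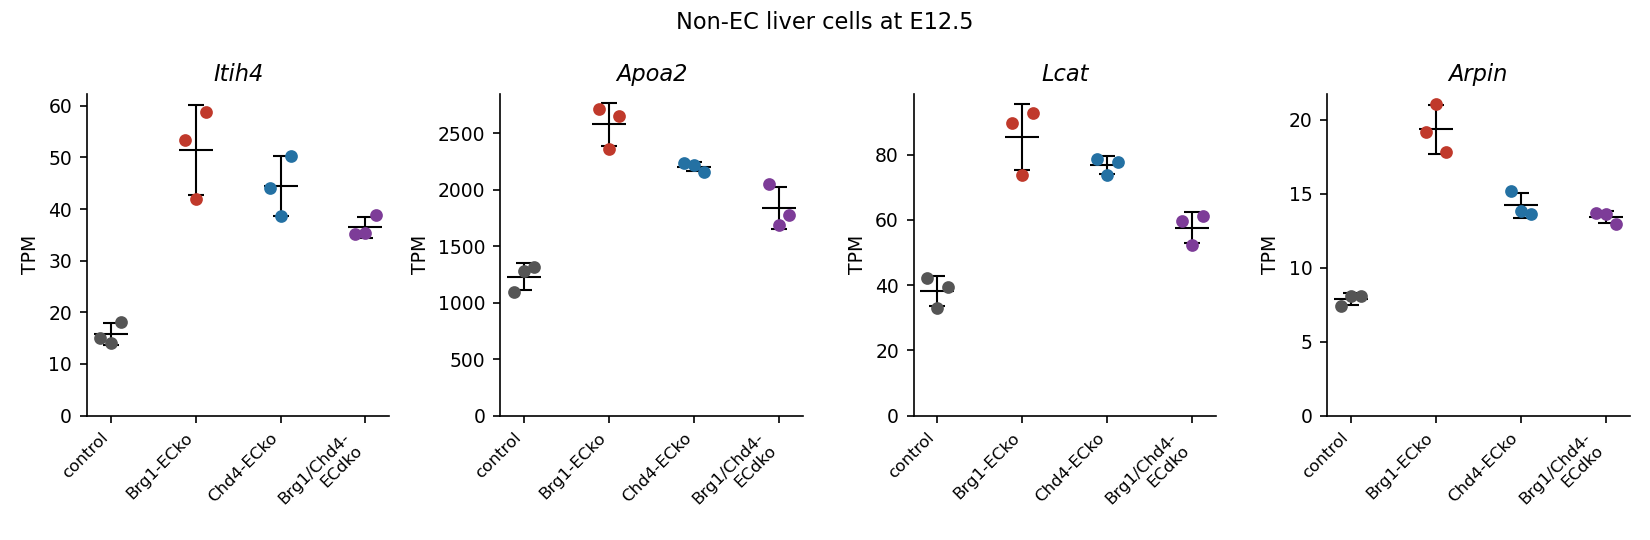
TPM of *Itih4*, *Apoa2*, *Lcat* and *Arpin* (y axis, linear from 0) in the 3 non-EC libraries of each of the 4 genotypes (x axis). Points are libraries, and bars are the mean ± SD (n = 3). All libraries of the 3 mutants lie above all controls, and the *Brg1-ECko* mean is the highest of the 4 genotypes for each gene.

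Several of the other genes with the smallest p-values encode plasma proteins, as read from their names and not counted over a fixed list. They included *Apof* and *Apom* (apolipoproteins), *Hpx* (hemopexin, which binds free heme), *F7* and *Proc* (coagulation factor VII and protein C), *Serpinf1* and *Cpn1* (carboxypeptidase N). *Gamt*, which makes creatine, was at 22.2, 19.3 and 20.6 TPM in the controls and 50.2, 42 and 48.9 TPM in *Brg1-ECko* libraries, a log2 fold change of 1.15 ± 0.11 (adjusted p = 0.00102). *Pla2g12b*, needed for secretion of triglyceride-rich lipoproteins, rose by 1.15 ± 0.11 on the log2 scale. *Krt18*, the keratin of simple epithelia, was at 108, 100.4 and 103 against 245, 194 and 211 TPM. In these genes the 3 mutant libraries were all above the 3 controls. Genes without a known restriction to hepatocytes were *Zfp13*, a zinc finger gene at 3.23, 2.46 and 2.96 against 7.60, 6.79 and 7.37 TPM, *Ndrg1*, a stress- and differentiation-related gene at 51, 47.9 and 55.6 against 113, 94.3 and 99.2 TPM, and *Tmem176b*, a membrane protein gene that rose by 0.97.

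Over 11 lists of hepatoblast and hepatocyte genes joined, 77 of 128 tested genes were called higher, which is 60.2% against 8.91% of all tested genes, and 0 were called lower. Of the 128 genes, 123 had a positive fold change, and the median log2 fold change was 0.85, against 0.02 over all genes. The largest was *Itih4*. Lists and members were chosen with results of these data known, so the counts describe these libraries. They ranged from 51 to 87 when 1 library was left out, were 64 with the *Eif2s3y* covariate and 36 without the 2 *Brg1-ECko* libraries low in *Eif2s3y*.

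Of 10 hepatoblast markers 7 were called higher (8.91% of all tested genes) and 0 lower, a count that ran from 4 to 8 over the alternatives. *Krt8* rose from 121, 120.1 and 147 to 350.1, 236 and 283 TPM, the imprinted surface protein *Dlk1* from 316, 247 and 293 to 603, 469 and 591 TPM (log2 0.95 ± 0.13), and *Ttr* (transthyretin) by 0.94 on the log2 scale. The plasma proteins of the fetal liver gave less firm calls. *Afp* (alpha-fetoprotein) was at 7808, 7857 and 8506 TPM in the controls and 16602, 10541 and 13985 TPM in *Brg1-ECko* libraries, and *Alb* (albumin) at 5564, 5779 and 6475 against 11704, 7731 and 10843 TPM. Their groups did not overlap, with a ratio of means of 1.7 for each, but *Brg1-ECko* replicate 2 was the nearest to the controls and the calls (adjusted p = 0.0245 and 0.0435) were lost when *Brg1-ECko* replicate 1 was left out (0.103 and 0.155), and also without *Brg1-ECko* replicate 3 or any 1 control. *Afp* lost its call with the *Eif2s3y* covariate too (adjusted p = 0.0507), and *Alb* when TPM were rescaled without mitochondrial genes (0.0644). *Cdh1*, *Prox1* and *Epcam* did not pass, with log2 values of 0.78, 0.42 and −0.02.

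Of 15 tested hepatoblast transcription factors 8 were higher (8.91% of all tested genes) and 0 lower, with a median log2 fold change of 0.59 and a count of 3 to 8 over the alternatives. *Foxa3* was at 15, 15.4 and 14.3 TPM in the controls and 31.2, 26.4 and 32.9 TPM in *Brg1-ECko* libraries (log2 0.97 ± 0.11, adjusted p = 0.00128). *Hnf4a*, the central nuclear receptor of the hepatocyte network, was at 71.1, 55.5 and 78.6 against 166, 99.2 and 142 TPM (adjusted p = 0.0105), and *Cebpa* at 36.6, 24.5 and 32.9 against 66.8, 54.3 and 63.8 TPM (adjusted p = 0.00229). In each the mutant libraries were above the controls, and in each *Brg1-ECko* replicate 2 was the lowest of its group. The call of *Hnf4a* was lost without *Brg1-ECko* replicate 1, and those of *Hnf4a* and *Cebpa* without the 2 libraries low in *Eif2s3y*. *Foxa2*, *Xbp1* and *Creb3l3*, the last of which drives apolipoprotein genes in liver, were among the other genes called higher, by 0.92, 0.59 and 1.19. The 7 uncalled factors, *Onecut1*, *Prox1* and *Tbx3* among them (0.45, 0.42 and 0.51), did not pass, and their values began at −0.07.

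Among apolipoproteins and lipid transport genes 11 of 15 were higher (8.91% of all tested genes) and 0 lower, with a median of 0.94. *Apoa1*, the main protein of high-density lipoprotein, was at 1295, 1397 and 1495 TPM in the controls and 3216, 2781 and 3126 TPM in *Brg1-ECko* libraries (log2 1.12 ± 0.12). *Apoe* was at 1461, 1404 and 1692 against 3014, 2489 and 2698 TPM (log2 0.85 ± 0.11). The groups stood apart in both, and *Apoc1*, *Apoc2*, *Apoc4*, *Apom*, *Lipc*, *Mttp* and *Pltp* passed with values of 0.83 to 1.17. *Mttp* and *Pltp* lost their calls without *Brg1-ECko* replicate 1 or 3 or control replicate 2 (*Pltp* also without control replicate 3), *Apoc4* without *Brg1-ECko* replicate 1 or control replicate 1, and all 3 with the *Eif2s3y* covariate. Over the alternatives the count of the list ran from 4 to 13. *Apob*, the scaffold of very low-density lipoprotein, did not pass and had a value of 0.22 (adjusted p = 0.82). Within the inter-alpha-trypsin inhibitor family 5 of 6 genes were higher, against the same 8.91%. *Ambp*, which encodes the light chain bikunin, rose by 0.99, and the heavy chains *Itih1*, *Itih2* and *Itih3* by 0.91, 0.75 and 0.94, all below the 1.64 of *Itih4*. *Itih2* lost its call with any 1 library left out but *Brg1-ECko* replicate 2 and under quantile normalization, *Itih1* without *Brg1-ECko* replicate 1 or 3 or control replicate 2, and *Itih3* without *Brg1-ECko* replicate 1, where 2 of the 6 genes were left.

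Of the plasma proteins 8 of 11 carrier genes, 9 of 13 serpins and other protease inhibitors, 13 of 19 coagulation genes, 7 of 16 liver complement genes and 3 of 6 acute phase genes were called higher (8.91% of all tested genes), with medians of 0.88, 1.04, 0.85, 0.68 and 0.76, and none in these lists was called lower. Over the alternatives these counts ran from 3 to 9, 6 to 11, 7 to 14, 2 to 9 and 0 to 4 (the lowest without the 2 libraries low in *Eif2s3y*). *Trf* (transferrin), a carrier of iron, was at 1849.7, 2007 and 2013 TPM in the controls and 4505, 2731 and 3905 TPM in *Brg1-ECko* libraries. *Serping1*, the C1 inhibitor, was at 33.3, 25.1 and 37.1 against 86.1, 64.7 and 84.8 TPM (log2 1.28 ± 0.16), and *Serpinf2*, the inhibitor of plasmin, at 295, 279.6 and 308 against 711, 495 and 633 TPM. The mutant libraries were above the controls in all 3 genes, but the call of *Trf* was lost without *Brg1-ECko* replicate 1. *Serpina1a* and *Serpina1c* were called and *Serpina1b*, *Serpina1d* and *Serpina1e* were not (*Serpina1a* was lost without *Brg1-ECko* replicate 1 and *Serpina1c* without replicate 3), but these are near-identical copies between which reads can be split, and their values are uncertain. Coagulation genes that rose included *F2* (prothrombin), *F10*, *F12*, *Vtn* and the 3 fibrinogen chains *Fga*, *Fgb* and *Fgg* (by 0.95, 0.8 and 0.85, with *Fgb* lost without *Brg1-ECko* replicate 1 or 3 or control replicate 1 or 2), whereas 6 genes, *F5* and *F9* among them, did not pass (−0.01 to 0.54). *C3*, the central complement component, was at 354, 296 and 415 against 899.5, 591 and 903 TPM (log2 1.15 ± 0.19). Of the acute phase genes *Apcs*, *Crp* and *Saa4* rose, and the other 3 tested did not pass (−0.11 to 0.77). *Saa4* lost its call with any 1 library left out but *Brg1-ECko* replicate 2, *Crp* without *Brg1-ECko* replicate 1, and both with the *Eif2s3y* covariate.

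Genes of amino acid catabolism and of cholesterol and fatty acid synthesis showed the same direction. The hypoxia and glycolysis list and the nuclear oxidative phosphorylation list had medians of 0.13 and 0.08, with 0 genes called higher. Of 14 urea cycle and amino acid catabolism genes 8 were higher (median 0.75, against 8.91% of all tested genes called), among them *Asl* and *Ass1* of the urea cycle (by 0.79 and 0.58, the call of the latter lost without *Brg1-ECko* replicate 1 or 3 or control replicate 2) and *Fah*, *Hgd* and *Hpd* of tyrosine breakdown (by 1.13, 0.97 and 1.09, with *Hpd* lost with the *Eif2s3y* covariate). The count of the urea cycle and amino acid catabolism list ran from 4 to 13 over the alternatives. Of 23 cholesterol and fatty acid synthesis genes 15 were higher (8.91% of all tested genes) and 0 lower, with a median of 0.55. *Mvk*, mevalonate kinase, was at 38.1, 34.8 and 42.2 TPM in the controls and 91, 75.5 and 71.6 TPM in *Brg1-ECko* libraries (log2 1.03 ± 0.12), and *Fdps* at 253, 260.2 and 266 against 517, 452 and 426 TPM. Both genes stood apart between the groups. *Srebf2* and *Srebf1*, the transcription factors of this pathway, rose by 0.41 and 0.32, but the call of *Srebf1* was lost with any 1 of the 6 libraries left out that of *Srebf2* with any but control replicate 1, and both with the *Eif2s3y* covariate. The count of this list was 7 with the *Eif2s3y* covariate, 1 without the 2 libraries low in *Eif2s3y* and 8 to 13 with 1 library left out. Of 8 tested genes of xenobiotic and bile acid metabolism, most of which start later in life, 2 (*Gstm1* and *Cyp2d10*) were called higher (8.91% of all tested genes), and *Cyp2d10* lost its call without *Brg1-ECko* replicate 1 or 3 or control replicate 1 or 2 and with the *Eif2s3y* covariate. Of 5 tested cholangiocyte markers 2 were called higher, against the same 8.91%, among them *Sox9* at 1.16, 0.903 and 1.55 against 2.38, 2.41 and 2.45 TPM, whose call was lost without *Brg1-ECko* replicate 1 or 3 or control replicate 1 or 2 and with the *Eif2s3y* covariate.

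**Figure D3:**
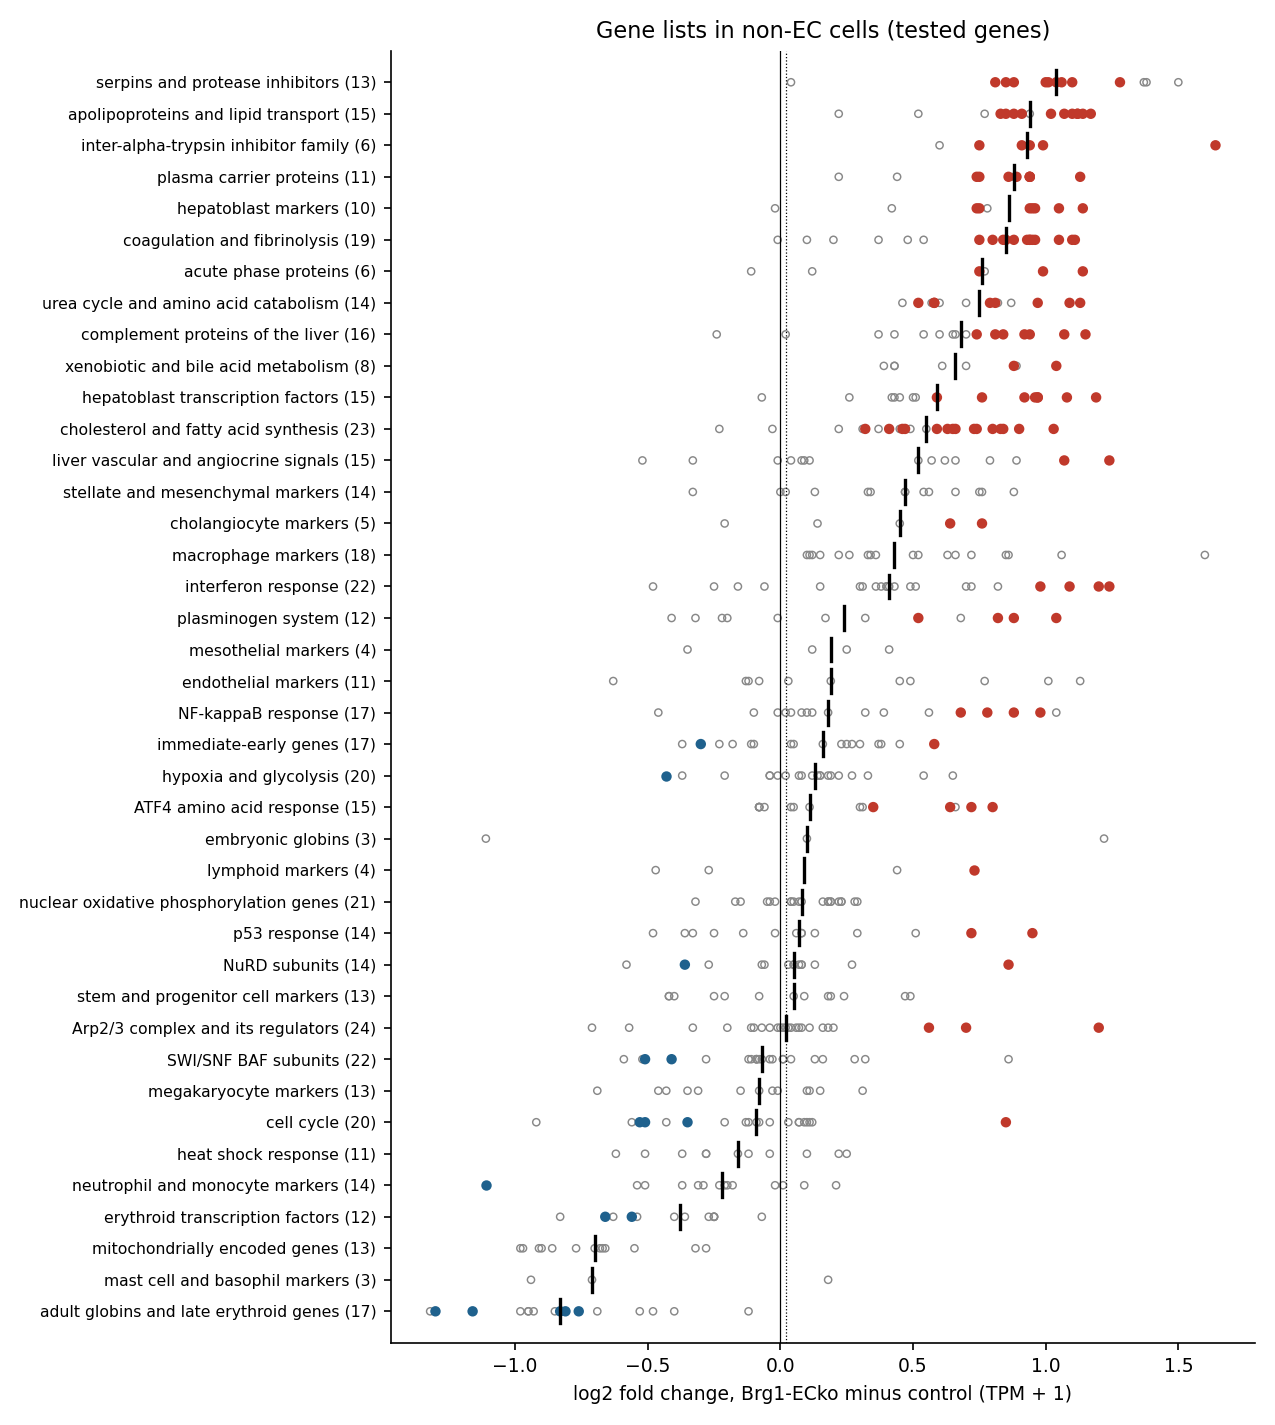
Log2 fold change (*Brg1-ECko* minus control, x axis) of every tested gene of 40 lists (rows, with the number tested), ordered by the list's median (black bar). Red and blue points passed an adjusted p of 0.05 higher and lower, open points did not, and the dotted line is the median of all tested genes (0.02). The secretory and metabolic lists of hepatocytes lie at the top. The lists of late erythroid genes and of erythroid transcription factors lie near the bottom, whereas that of embryonic globins has a median of 0.1.

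Erythroid genes had lower values. Of 17 tested genes of the list of adult globins and late erythroid genes, all 17 had negative values (median −0.83), 5 were called lower (2.76% of all tested genes) and 0 higher. *Tfrc*, the transferrin receptor with which erythroblasts take up iron, was at 491, 527 and 442 TPM in the controls against 221, 186 and 250.3 TPM in *Brg1-ECko* libraries, and *Rhag* at 111, 136 and 95.1 against 53.5, 74.6 and 71.7 TPM. The groups did not overlap in these genes, and the log2 fold changes were −1.16 ± 0.32 and −0.76 ± 0.16 (adjusted p = 0.0382 and 0.0114). *Kel* was among the other calls. The calls of *Tfrc* and *Kel* were lost with any 1 of the 6 libraries left out, and that of *Rhag* without *Brg1-ECko* replicate 1 or control replicate 2. The 4 adult globin genes had values of −0.95 to −0.69 and did not pass, and that of *Hba-a2* turned positive when single libraries were left out. Their reads can be split between near-identical copies, and red cells were lysed during the preparation.

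The 5 erythroid calls became 0 with the *Eif2s3y* covariate, without *Brg1-ECko* replicate 1 and without control replicate 2, and 1 or 2 without *Brg1-ECko* replicate 2 or 3 or control replicate 1. Summed over the list, whose part in the other results was not tested, the controls had 3351 to 11835 TPM and *Brg1-ECko* libraries 2129 to 4619 TPM, so that the sums overlapped. Of 12 erythroid transcription factors 2 were called lower, against 2.76% of all tested genes, and all 12 had negative values (median −0.38). *Ikzf1* was at 73.5, 72 and 67.7 TPM in the controls and 44.9, 49.6 and 48.9 TPM in *Brg1-ECko* libraries (log2 −0.56 ± 0.07, adjusted p = 0.00157), and *Bcl11a*, a repressor of embryonic globin genes, at 68.6, 67.9 and 68.1 against 38.7, 44.1 and 46.3 TPM (log2 −0.66 ± 0.1, adjusted p = 0.00231). The groups did not overlap, both genes passed with each 1 of the 6 libraries left out, neither passed without the 2 *Brg1-ECko* libraries low in *Eif2s3y*, and both are also used by lymphoid and progenitor cells. *Myb* and *Tal1* missed the threshold at −0.54 and −0.63 (adjusted p = 0.0511 and 0.0574), and *Gata1* and *Klf1* had values of −0.25 and −0.36. The embryonic globins *Hbb-y*, *Hbb-bh1* and *Hba-x* did not pass (1.22, −1.11 and 0.1).

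Among the 22 lower DEGs, which were named after their values were seen, were further blood genes. *Hemgn* and *Car1* belong to erythroid cells, and both calls were lost without *Brg1-ECko* replicate 1 and with the *Eif2s3y* covariate (*Hemgn* also without control replicate 1 or 2). *Ear2*, a ribonuclease of eosinophils, was at 18.1, 25.6 and 29.2 TPM in the controls against 3.27, 7.04 and 8.01 TPM in *Brg1-ECko* libraries (log2 −1.88 ± 0.36). Its relative *Ear6* was at 13.1, 17.5 and 33.2 against 3.37, 7.30 and 4.80 TPM (log2 −1.8 ± 0.33). *Prg2*, the eosinophil major basic protein, was at 123, 149.7 and 315 against 55.8, 98.1 and 67.3 TPM. The groups did not overlap in these 3 genes, although *Ear2* and *Ear6* belong to a family of near-identical copies and their reads may be shared. The call of *Prg2* was lost without *Brg1-ECko* replicate 1 or 3 or control replicate 2 or 3. *Il1rl1*, the interleukin-33 receptor, was at 5.17, 5.13 and 5.58 against 2.29, 2.27 and 1.49 TPM, *Ccr2*, a monocyte chemokine receptor, at 4.69, 2.17 and 6.33 against 1.11, 1.72 and 1.29 TPM, and *Pkhd1l1* at 3.25, 3.36 and 3.05 against 0.502, 0.722 and 0.916 TPM. The call of *Ccr2* was lost without *Brg1-ECko* replicate 1 or 3 or control replicate 1 or 3, and those of *Ear2*, *Il1rl1* and *Ccr2* with the *Eif2s3y* covariate. *Nxpe2* had the smallest p of the lower DEGs, with 71.7, 89.3 and 69 TPM in the controls and 23.8, 33.4 and 34.6 TPM in *Brg1-ECko* libraries (log2 −1.31 ± 0.16), and passed under every alternative. *Uty*, also among them, is Y-linked, and its call was lost with the *Eif2s3y* covariate.

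Markers of other cells were mostly not called. Of 18 tested macrophage markers 0 were called by limma, 4 had an unadjusted p under 0.05 and all 18 had positive values, with a median of 0.43. With the replicate number as a block 5 of them were called higher. Their sum was 462 to 826 TPM in the controls and 729 to 1061 TPM in *Brg1-ECko* libraries. *Cd5l*, a macrophage-secreted protein, had the largest value at 1.6 ± 0.58 (adjusted p = 0.0998). No marker was called among 14 tested stellate and mesenchymal genes (3 at an unadjusted p under 0.05, median 0.47), 13 megakaryocyte genes (1), 13 stem and progenitor genes (2), 11 endothelial genes (4), 4 mesothelial genes (1) and 3 mast cell and basophil genes (1). Of 14 neutrophil and monocyte markers *Ccr2* was called lower (2.76% of all tested genes), and 11 had negative values, with a median of −0.22. Of 4 tested lymphoid markers *Id2*, a transcriptional inhibitor that many cell types use, was called higher (8.91% of all tested genes) at a log2 value of 0.73 (adjusted p = 0.037), and lost its call without *Brg1-ECko* replicate 1 or 3 or any 1 control. Endothelial markers summed to 94.3 to 141 TPM in *Brg1-ECko* libraries, with *Mcam*, *Emcn*, *Flt1*, *Cldn5*, *Sox17*, *Robo4* and *Ptprb* under 1 TPM in all of them. *Kdr*, the VEGF receptor of endothelium, was at 5.47, 3.11 and 4.90 TPM in the controls and 6.47, 20.0 and 7.19 TPM in *Brg1-ECko* libraries, with replicate 2 apart from the rest, and did not pass (adjusted p = 0.0928). The part of these cell types in the results was not tested.

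**Figure D4:**
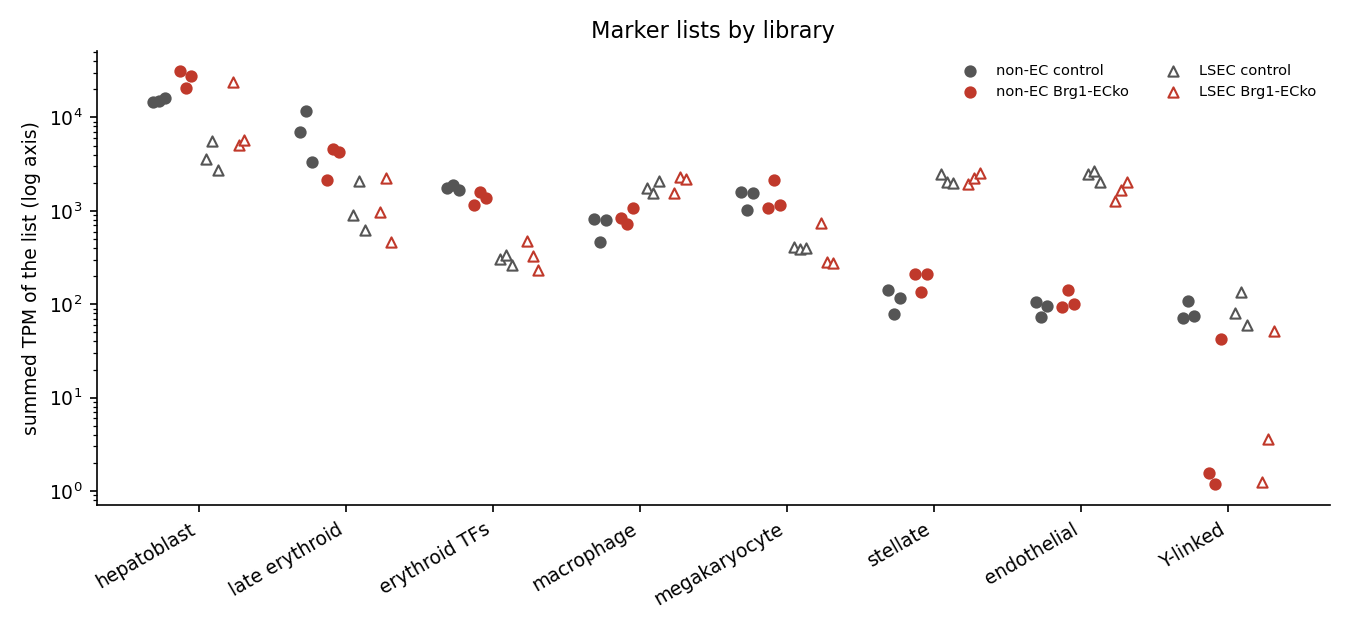
Summed TPM (log y axis) of 8 marker lists (x axis) in each of the 3 libraries of non-EC control, non-EC *Brg1-ECko*, LSEC control and LSEC *Brg1-ECko* cells. Each symbol is 1 library. Hepatoblast markers of the non-EC *Brg1-ECko* libraries lie above those of the controls, endothelial and stellate markers are low in all non-EC libraries, and the Y-linked sums are lowest in 2 *Brg1-ECko* libraries of each fraction.

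Interferon-response genes had a median of 0.41 over 22 tested genes, of which 4 were called higher (8.91% of all tested genes), 0 lower, and 12 were higher at an unadjusted p under 0.05. *Usp18*, which removes ISG15 from proteins and dampens interferon signaling, was at 4.35, 5.24 and 4.91 TPM in the controls and 14.9, 10.9 and 11.6 TPM in *Brg1-ECko* libraries (log2 1.2 ± 0.15, adjusted p = 0.00133). *Irf7*, a transcription factor that amplifies interferon production, was at 2.98, 1.43 and 3.05 against 6.29, 8.44 and 6.57 TPM, and *Ifitm3*, an antiviral membrane protein, at 25, 15.7 and 19.6 against 45.7, 45 and 39.4 TPM. The mutant libraries were above the controls in all 3, and *Rigi* (RIG-I) was also called (0.98), a call that was lost with any 1 of the 6 libraries left out and with the *Eif2s3y* covariate. *Usp18* passed under every alternative, whereas *Irf7* and *Ifitm3* were lost without the 2 libraries low in *Eif2s3y* and with the *Eif2s3y* covariate (adjusted p = 0.143 and 0.127). *Isg15* and *Ifit1* did not pass (0.82 and 0.43).

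Of 17 tested NF-kappaB response genes 4 were higher (8.91% of all tested genes) and 0 lower, with a median of 0.18. *Bcl3*, an IκB-like coactivator, was at 5.19, 3.68 and 3.55 TPM in the controls and 8.15, 7.71 and 7.46 TPM in *Brg1-ECko* libraries. *Icam1*, the adhesion molecule that arrests leukocytes, was at 16.2, 7.26 and 15.8 against 22.9, 25.1 and 23.1 TPM, and *Relb* and the chemokine *Cxcl1* rose by 0.68 and 0.98. The call of *Relb* was lost with any 1 of the 6 libraries left out, that of *Cxcl1* with any but control replicate 1, and both with the *Eif2s3y* covariate. The count for the list ran from 0 to 6 over the alternatives. Control replicate 2 was far below the other controls for *Icam1*, and the call (log2 0.88 ± 0.23, adjusted p = 0.0301) was lost when any 1 *Brg1-ECko* library was left out (0.0765 to 0.0851), with the *Eif2s3y* covariate (0.175), without the 2 libraries low in *Eif2s3y* (0.328) and in the fit of the 6 libraries alone. The feedback inhibitor *Nfkbia* did not pass (0.39), nor did the other 12 uncalled genes of the list, and 3 of the 17 had negative values. The cytokine genes *Tnf*, *Il1b* and *Il6* were below the filter, with *Tnf* at 0.418, 0.651 and 0.196 against 0.675, 0.562 and 0.639 TPM (two-sided exact permutation test of 3 against 3, p = 0.3, where the smallest possible p is 0.1).

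Of the plasminogen system, 4 of 12 tested genes were higher (8.91% of all tested genes) and 0 lower. *Plg*, plasminogen itself, was at 356, 324 and 382 TPM in the controls and 755, 510.1 and 722 TPM in *Brg1-ECko* libraries (log2 0.88 ± 0.17), and *Serpinf2*, given above, is also of this list. *Anxa2*, a surface receptor of plasminogen, was at 38, 28.1 and 37.5 against 77.5, 54.3 and 54.4 TPM, and *Serpine2* rose by 0.52. The call of *Anxa2* was lost without *Brg1-ECko* replicate 1 or control replicate 2 and with the *Eif2s3y* covariate, that of *Serpine2* with any library left out but *Brg1-ECko* replicate 1, and the count for the list ran from 1 to 5. The activators and their receptor did not pass, with log2 values of 0.68 for *Plau*, −0.01 for *Plat* and 0.32 for *Plaur*. *Plau* was near the threshold (adjusted p = 0.0522), and its groups did not overlap. It was called with a pseudocount of 0.1 TPM, with no trend, and without *Brg1-ECko* replicate 2 or control replicate 3. Of 15 tested vascular and angiocrine signals 2 were called higher, against 8.91% of all tested genes. *Thpo* (thrombopoietin) was at 1.89, 1.47 and 2.01 against 6.42, 4.32 and 4.05 TPM (adjusted p = 0.00802), a call lost with the *Eif2s3y* covariate. *Bmp2* was at 0.241, 0.225 and 0.271 against 0.623, 4.53 and 1.82 TPM, all 3 controls were below 1 TPM, and *Brg1-ECko* replicate 2 was the highest. Its call (adjusted p = 0.0423) was lost without *Brg1-ECko* replicate 2 or 3 (0.0869 and 0.102) or any 1 control (0.0962 to 0.109), with the *Eif2s3y* covariate (0.279) and without the 2 libraries low in *Eif2s3y* (0.0795).

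Subunits of the remodeling complexes were read against the 8.91% higher and 2.76% lower of all tested genes. Of 22 tested SWI/SNF subunits, *Brd7* (184, 193 and 192 against 146, 136 and 146 TPM) and *Bcl7a* fell by 0.41 and 0.51 on the log2 scale and 0 rose. Of 14 NuRD subunits, *Mbd2* fell by 0.36 and *Chd3*, an alternative ATPase of NuRD, rose from 8.95, 7.64 and 7.15 to 12.7, 15.6 and 17.3 TPM. These 4 calls were lost with the *Eif2s3y* covariate, that of *Chd3* also without *Brg1-ECko* replicate 3 or control replicate 2 or 3, and that of *Bcl7a* without *Brg1-ECko* replicate 1 or 2 or control replicate 1 or 3. Among 24 genes of the Arp2/3 complex and its regulators, *Arpin*, *Cttn* (cortactin, 0.56) and *Wasf1* (0.7) rose, against 8.91% of all tested genes, and no subunit of the complex passed (*Arpc5* had −0.2). The call of *Wasf1* was lost without *Brg1-ECko* replicate 3 and with the *Eif2s3y* covariate. Of 20 cell cycle genes, against the same shares, *Mcm4*, *Pcna* and *Ccna2*, which act in DNA replication, fell by 0.51, 0.53 and 0.35, and *Ccnd1* rose by 0.85. *Mcm2*, *Mcm3*, *Mcm5*, *Mcm6* and *Mcm7* did not pass (−0.21 to 0.03). The list had a median of −0.09, with 12 negative and 8 positive values. The calls of *Mcm4* and *Ccna2* were lost with the *Eif2s3y* covariate, that of *Ccna2* also with any library left out but control replicate 3, and that of *Ccnd1* without *Brg1-ECko* replicate 1 or 3 or control replicate 2. *Pcna* was at 590.4, 747 and 691 TPM in the controls and 479.9, 459 and 455 TPM in *Brg1-ECko* libraries, with no overlap.

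Stress lists were read against the same shares of all tested genes. ATF4 targets *Psph*, *Phgdh*, *Atf5* and *Psat1*, which act in serine synthesis except for *Atf5*, a transcription factor, rose by 0.64, 0.72, 0.8 and 0.35 among 15 tested (8.91% of all tested genes). The p53 targets *Bbc3* and *Plk2* rose by 0.72 and 0.95 among 14. The median was 0.11 for the ATF4 list and 0.07 for the p53 list, with 5 and 6 negative values. The calls of *Atf5*, *Psat1* and *Plk2* were lost with any 1 of the 6 libraries left out, that of *Phgdh* without *Brg1-ECko* replicate 1 or 3 or control replicate 2, and all 6 with the *Eif2s3y* covariate, so that both lists had 0 calls there. Of 17 immediate-early genes *Jund* rose (0.58) and *Myc* fell by 0.3, of 20 hypoxia and glycolysis genes *Pdk1* fell by 0.43 (all 3 calls were lost with the *Eif2s3y* covariate, that of *Myc* with any 1 library left out, *Pdk1* without *Brg1-ECko* replicate 1 or 3 or control replicate 2, and *Jund* without control replicate 2), and of 11 heat shock genes 0 passed in limma (1 at an unadjusted p under 0.05). The 13 mitochondrially encoded genes had negative values with a median of −0.7, and 0 passed (1 at an unadjusted p under 0.05). The 21 nuclear genes of oxidative phosphorylation had a median of 0.08, with 0 calls and 5 at an unadjusted p under 0.05.

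Several of the largest rises by size, also named after their values were seen, were in genes of low level in the controls. *Cnrip1* was at 2.76, 1.90 and 2.43 TPM in the controls and 5.31, 21.2 and 11.8 TPM in *Brg1-ECko* libraries, *Hapln1*, a hyaluronan link protein, at 0.540, 0.210 and 0.533 against 2.71, 6.33 and 3.91 TPM, and *Cyp26b1*, which degrades retinoic acid, at 0.224, 0.274 and 0.329 against 1.37, 8.43 and 1.79 TPM. In each of them *Brg1-ECko* replicate 2 was the highest library, as for *Kdr* and *Bmp2*. *Calca* was listed at 0 in the 3 controls and at 0.422, 7.30 and 1.81 TPM in *Brg1-ECko* libraries. The calls of *Cnrip1*, *Hapln1*, *Cyp26b1* and *Calca* were lost with the *Eif2s3y* covariate and without control replicate 2, those of *Cnrip1*, *Cyp26b1* and *Calca* also without control replicate 1 or 3, and that of *Cnrip1* without *Brg1-ECko* replicate 2 or 3. By contrast *Rims4* (8.67, 7.29 and 3.36 against 20.3, 15.2 and 26.3 TPM) and the metabolic gene *Gpd1* (17.3, 17.2 and 13.6 against 62.7, 32.5 and 41.8 TPM) had replicate 2 as the lowest of the mutants. The metallothionein *Mt1* was at 393, 484 and 376 against 829, 1233 and 632 TPM, and its call (log2 1.06 ± 0.24) was lost without *Brg1-ECko* replicate 1 or control replicate 1 or 3. The value for *Mt1* was 0.61 with the *Eif2s3y* covariate (adjusted p = 0.243) and 0.6 without the 2 libraries low in *Eif2s3y* (adjusted p = 0.361).

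The non-EC cells of the other mutants were measured against the same 3 controls, so the values of the 3 mutants are given side by side and their differences were tested directly. The *Chd4-ECko* libraries had 44.1, 38.7 and 50.4 TPM of *Itih4*, the *Brg1/Chd4-ECdko* libraries 35.1, 35.4 and 38.9 TPM, and for *Lcat* the values were 78.8, 73.6 and 77.8 against 59.5, 52.3 and 61.1 TPM. *Arpin* was at 15.2, 13.8 and 13.6 against 13.7, 13.7 and 13 TPM, so that all *Brg1-ECko* libraries were above those of the other 2 mutants. Between *Brg1-ECko* and *Chd4-ECko* 0 of 12223 genes passed (limma), and the smallest adjusted p was 0.489. An unadjusted p under 0.05 was found for 354 genes, below the 611 expected if no gene differed. Without *Chd4-ECko* replicate 1 the calls were 9, and 2949 genes had an unadjusted p under 0.05. That number was 271 to 538 when any other library of these 2 mutants was left out. The small number of differences between them therefore depended on *Chd4-ECko* replicate 1. The log2 difference, *Brg1-ECko* minus *Chd4-ECko*, was 0.42 ± 0.1 for *Arpin* and 0.2 ± 0.14 for *Itih4* (adjusted p = 0.969 for both). The smallest p was that of the embryonic globin *Hbb-bh1*, whose *Brg1-ECko* libraries had 1.58, 6.76 and 2.28 TPM, against 21.4, 149 and 107 TPM in those of *Chd4-ECko*. The groups did not overlap, whereas the controls, at 12, 10.4 and 3.40 TPM, overlapped with *Brg1-ECko*. *Tcfl5*, which also did not pass, had lower values in *Brg1-ECko* (1.37, 1.03 and 1.26 TPM) than in *Chd4-ECko* libraries (3.01, 7.96 and 6.01 TPM), and *Tnnc1*, a troponin C, had higher ones (40.3, 35.3 and 38.8 against 21.4, 14.2 and 21.8 TPM). Over the joined hepatoblast and hepatocyte lists the median difference was 0.15, with 0 of 128 genes called and 2 at an unadjusted p under 0.05.

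Between *Brg1/Chd4-ECdko* and *Brg1-ECko* cells 0 genes passed (limma). An unadjusted p under 0.05 was found for 1558 genes (5% of those tested are 611), and for 754 without *Brg1/Chd4-ECdko* replicate 2. The smallest adjusted p was 0.0643. That gene was *Tnnt2*, cardiac troponin T, whose *Brg1-ECko* libraries had 0.885, 1.96 and 1.24 TPM. The *Brg1/Chd4-ECdko* libraries had 10.1, 24.5 and 13.6 TPM and did not overlap with them. Over the 128 hepatoblast and hepatocyte genes, 115 were lower in *Brg1/Chd4-ECdko* than in *Brg1-ECko* cells, with a median log2 difference of −0.36, 58 at an unadjusted p under 0.05 and 0 called. *Apoa1*, for example, was at 2146, 1597 and 1876 TPM in *Brg1/Chd4-ECdko* libraries, a difference of −0.71 ± 0.12 from *Brg1-ECko* (unadjusted p = 7.16e-05, adjusted p = 0.216). The 17 late erythroid genes had a median difference of 0.46, with 5 at an unadjusted p under 0.05.

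The effect in non-EC cells was last compared with that in LSECs, in 1 model of all 24 libraries, which took them as independent. The 2 effects differed in 143 of 13775 genes (1.04%), of which 123 had the higher effect in non-EC cells. Of the 132 of these genes tested in both fractions, 121 had opposite signs. Choosing genes by a difference of the effects favours opposite signs, and the share over all genes is not given, so no conclusion is drawn from this count. The labels do not say that libraries of 1 genotype and number from the 2 fractions came from the same embryo, but their deviations from the group means correlated across genes at 0.124 to 0.411 in the 12 pairs, and *Eif2s3y* was high or low together in each pair. With each pair as a block, a fit added after seeing the data, 98 genes were called, 78 of them among the 143, and *Anxa2* and *Icam1* were lost (adjusted p = 0.0922 and 0.0783). *Igfbp4*, an insulin-like growth factor binding protein, was at 160.2, 131 and 162 against 326, 238 and 283 TPM in non-EC control and *Brg1-ECko* cells, and at 866, 887 and 764 against 562, 632 and 674 TPM in LSECs. The *Brg1-ECko* libraries were all above the controls in non-EC cells and all below them in LSECs, with a difference of effects of 1.33 ± 0.18 (adjusted p = 0.00488). *Nherf2*, a scaffold of membrane transporters, and *Dbn1* (drebrin), an actin-binding protein, differed by 1.44 ± 0.21 and 1.41 ± 0.21. *Serpinh1*, a collagen chaperone, was at 66, 43 and 55 against 138, 115 and 126 TPM in non-EC cells and 1251, 1218 and 1178 against 666, 1041 and 1086 TPM in LSECs. All 4 genes had more TPM in every LSEC library of both groups than in any of the 6 non-EC libraries. *Arpin* was at 34, 37 and 35 TPM in control LSECs and 33.8, 44.1 and 42.8 TPM in *Brg1-ECko* LSECs, and its effects differed by 1.03 ± 0.21 (adjusted p = 0.0165).

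For hepatoblast and hepatocyte genes no difference between the fractions was called in 132 tested. Their median effect was 1.06 in LSECs, where 1 *Brg1-ECko* library stood apart. Hepatoblast markers summed to 23872 TPM in *Brg1-ECko* LSEC replicate 1, to 5122 and 5693 TPM in replicates 2 and 3, and to 2740.2 to 5625 TPM in control LSECs. *Itih4* had the same order, with 3.01, 4.04 and 2.32 TPM in control and 37.7, 6 and 9.55 TPM in *Brg1-ECko* LSECs. *Lyve1*, a receptor of sinusoidal endothelium and macrophages, was at 2.84, 0.415 and 1.27 against 2.58, 5.89 and 4.23 TPM in non-EC cells and 573, 629.7 and 432 against 230.0, 334 and 359 TPM in LSECs. Among 13444 genes tested in LSECs alone, 3 passed for *Brg1-ECko* against control, and 1302 had an unadjusted p under 0.05. The 143 calls became 325 without *Brg1-ECko* LSEC replicate 3 and 49 without non-EC *Brg1-ECko* replicate 1.

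**Figure D5:**
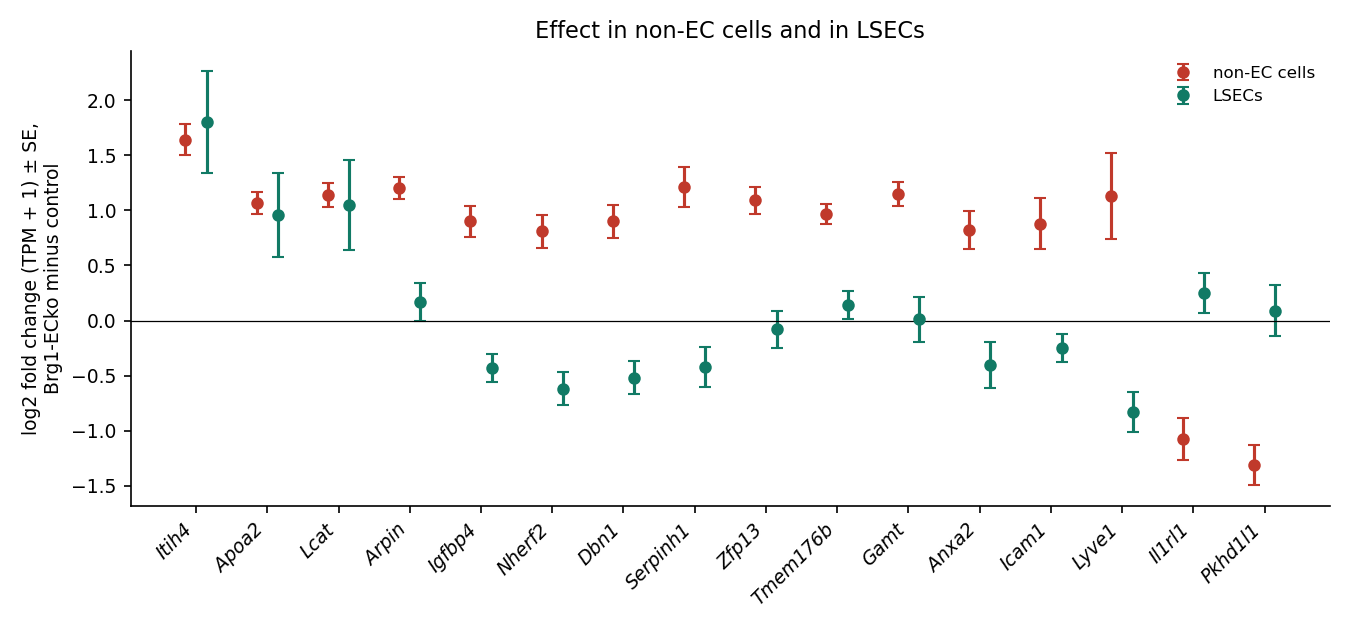
Log2 fold change ± SE (*Brg1-ECko* minus control, y axis) of 16 genes (x axis) in non-EC cells (red) and LSECs (green), from the model of each fraction. *Itih4*, *Apoa2* and *Lcat* have like values in both fractions with wide errors in LSECs, whereas for the other genes the 2 effects differed at an adjusted p under 0.05 in the joint model.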

How the data were processed

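RNA-Seq was performed on E12.5 LSECs and non-EC liver cells, 3 embryos per genotype and fraction. The authors removed runs of guanines, used CLC Genomics Workbench with the mm39 build (GRCm39) for mapping, and deposited TPM per gene. The paper names a number of reads for the sequencing, but the depth of each library is not given, nor is a counting interval. Transcription inhibitors were present during digestion. The 8 deposited columns of group means equalled the replicate means and were not tested. Genes with at least 1 TPM in 3 or more of the 12 non-EC libraries were tested as log2(TPM + 1) with limma 3.58.1 (R 4.3.3), with a mean per genotype, an intensity trend and Benjamini-Hochberg adjustment over all tested genes. Fold changes on this scale understate the change of low genes. The effects in non-EC cells and LSECs were compared in a fit of all 24 libraries. Libraries of the 2 fractions with the same genotype and number deviated together (correlations of 0.124 to 0.411 in all 12 pairs, 11 best with their own number), so a fit with these pairs as a block is given beside it. The procedure was run on simulated data with noise independent between genes and changes larger than most called here. That run therefore does not measure the rate of false or missed calls in these data. Members and lists were chosen with earlier results of these data known. Genes named were *Arpin*, *Itih4*, *Apoa2* and *Lcat*, the 24 with the smallest p, up to 4 per list by p with any called list member, the floxed genes and markers, and the 3 smallest p of each further comparison. All further names were picked with their values in view. Alternatives were another pseudocount, filter, normalization, trend, set of libraries, a replicate block, *Eif2s3y* as a covariate, and each library left out. The fit without 2 libraries low in *Eif2s3y*, list counts and the pairing of fractions were added after seeing the data. A few list members and 1 of the motifs searched are not reported here.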

Additional observations from a re-analysis of the deposited data

Results flagged for a closer look

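The *Brg1-ECko* effect differed between non-EC cells and LSECs, by a test of the difference itself (limma, all 24 libraries), for 13 genes named in the text. The difference, non-EC minus LSEC on the log2 scale, was 1.33 for *Igfbp4*, 1.44 for *Nherf2*, 1.41 for *Dbn1*, 1.63 for *Serpinh1*, 1.17 for *Zfp13*, 0.82 for *Tmem176b*, 1.03 for *Arpin*, 1.14 for *Gamt*, 1.96 for *Lyve1*, 1.14 for *Icam1* and 1.23 for *Anxa2*. It was −1.32 for *Il1rl1* and −1.4 for *Pkhd1l1*, the lower genes among them. The adjusted p-values ran from 0.00488 for *Igfbp4* to 0.0426 for *Anxa2*. With the LSEC and non-EC libraries of 1 genotype and number taken as pairs, 11 of the 13 calls were kept and those of *Anxa2* and *Icam1* were lost (adjusted p = 0.0922 and 0.0783). Without LSEC *Brg1-ECko* replicate 1, which was high in hepatoblast markers, 10 of the 13 calls were kept and those of *Anxa2*, *Icam1* and *Lyve1* were lost. *Igfbp4*, *Nherf2*, *Dbn1*, *Serpinh1*, *Zfp13* and *Il1rl1* passed with each of the 12 libraries left out in turn. *Anxa2* lost its call in 9 of these 12 fits, *Icam1* in 8, *Lyve1* and *Gamt* in 7 each, *Pkhd1l1* in 2 (LSEC control replicate 2 and non-EC *Brg1-ECko* replicate 1), *Arpin* without LSEC control replicate 2 and *Tmem176b* without non-EC *Brg1-ECko* replicate 1. *Icam1* was lost without any 1 LSEC control, any 1 non-EC *Brg1-ECko* library or LSEC *Brg1-ECko* replicate 1 or 2 (adjusted p = 0.0682 and 0.0653).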

How the results depend on the processing

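The 1426 calls became 426 with the *Eif2s3y* covariate and 125 without the 2 *Brg1-ECko* libraries low in *Eif2s3y*, and ranged from 568 to 1233 when 1 library was left out. They fell by over 1.5 times without *Brg1-ECko* replicate 1 or 3 or control replicate 2. The 167 DEGs became 301 with a pseudocount of 0.1 TPM, 83 without those 2 libraries, 1426 with no fold threshold, and 80 to 318 with 1 library left out (*Brg1-ECko* replicates 1 and 2 and control replicate 2 moved them by over 1.5 times). The share of higher calls was 55.2% in a fit of the 6 libraries alone. Of the joined hepatoblast and hepatocyte genes 36 were called without those 2 libraries, and 51 to 87 with 1 library left out, the lowest without *Brg1-ECko* replicate 1. Against *Chd4-ECko* 2 genes were called with no filter, and 0 to 9 with 1 library left out. For *Brg1/Chd4-ECdko* against *Brg1-ECko* 1 gene was called with no filter. The 143 differences between fractions became 405 under quantile normalization and 49 to 325 with 1 library left out, with falls of over 1.5 times without non-EC *Brg1-ECko* replicate 1 or 3, non-EC control replicate 2 or 3 or any LSEC control. The cause of these shifts was not tested. The read depth of each library is not given and limits low genes most.

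Uncalled genes changed sign. *Chd4* was −0.02 and *Tnnt2* −0.02 under quantile normalization. With the *Eif2s3y* covariate *Epcam* was 0.19, *Hba-x* −0.82, *Plat* 0 and *Tnnt2* −0.31, and without the 2 libraries low in it *Hba-x* was −0.22, *Plat* 0.12 and *Hba-a2* 0.78. With 1 library left out the log2 values ran from −0.08 to 0.62 for *Apob*, −0.01 to 0.09 for *Chd4*, −0.2 to 0.11 for *Epcam*, −0.27 to 0.5 for *Hba-x*, −0.07 to 0.08 for *Plat*, −2.48 to 0.37 for *Hba-a2* and −0.12 to 0.2 for *Tnnt2*.

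With the replicate number as a block 1603 genes were called in place of 1426, 175 were DEGs, 1 gene was called for *Brg1/Chd4-ECdko* against *Brg1-ECko*, and 213 in place of 143 differed between the fractions. Deviations of same-numbered control and *Brg1-ECko* libraries correlated at 0.0273, 0.163 and 0.104, and 6 of 12 libraries correlated best with their own number, so the numbers were not taken to pair the genotypes. The LSEC and non-EC libraries of 1 genotype and number did pair, and with these pairs as the block 98 genes differed between the fractions.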
